A study of Mus musculus with 16 samples.

Results

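The oxygen-sensing pathway of the mouse retina was described through 10 genes: the HIF subunits Hif1a, Epas1 and Arnt, the prolyl hydroxylases Egln1, Egln2 and Egln3, the ubiquitin ligase component Vhl, and the hypoxia targets Bnip3, Vegfa and Adm. They were picked by symbol for these roles, leaving out glycolytic targets, with earlier results of these data known. All 10 were found among the 25905 genes of the deposited table. The retinas came from the right eyes of wild-type C57BL/6 mice in 2 groups, 8 spaceflight mice and 8 ground control mice. The labels give an age of 10 weeks, which by the methods of the study was the age at launch, so the mice were older when the retinas were taken after the flight. The tissue was frozen after dissection, and each of the 16 stranded libraries was made from 100 ng of total RNA. The design sets retinal RNA after spaceflight against that of mice kept on the ground. By the methods of the study, mice were euthanized in carbon dioxide, and eyes were collected after splashdown and transport, not in flight. Any effect of these steps on the levels was not tested. Whether these genes differ between spaceflight and ground control was not analysed here, since the counts per library carry laboratory codes that match no sample label. The measure used was the mean normalized count, the authors' mean over all 16 libraries of both groups, which has no SD and no n. Depth per library was not analysed here, and the means summed to 6995811 over all genes.

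HIF is a transcription factor made of an oxygen-labile alpha subunit and a stable beta subunit. When oxygen is plentiful, prolyl hydroxylases modify the alpha subunit, and the VHL protein then binds it and has it ubiquitinated and degraded. When oxygen is scarce the alpha subunit persists, pairs with ARNT and activates genes of blood vessel growth, metabolism and mitochondrial turnover. Photoreceptors make the retina a tissue of very high oxygen use, and HIF and VEGF are known for their part in its vascular development and disease. Since much of this control acts on the HIF protein, transcript levels say nothing of HIF protein or activity.

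Hif1a and Epas1, the alpha subunits among the 10 genes, were among the transcripts with the highest counts in these retinas. Hif1a, which encodes the HIF-1 alpha subunit found in most cells, had a mean normalized count of 7409 and ranked 68 from the top of the 19667 genes above 0. Epas1, which encodes the HIF-2 alpha subunit and is well known from endothelium, had a mean normalized count of 3159 and rank 268. These ranks are of counts, which grow with transcript length. Per kb of the longest transcript the level was 1568 for Hif1a and 573 for Epas1, a ratio of 2.74. The ratio was 7.35 with the shortest transcripts and 2.45 with coding length, so its size depends on the length used. In whole retina, fewer cells of a type and less RNA per cell cannot be told apart, and neither can be assigned to a cell type here. The spread between mice was not analysed here, so no neighbours in an order of levels can be said to differ or not.

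Their shared partner had a low count. Arnt, the beta subunit that either alpha subunit needs to bind DNA, had a mean normalized count of 3.21, at percentile 27.5 of the genes above 0. Arnt was counted as 2 separate transcripts, whereas Hif1a and Epas1 were each counted as 1. For that reason its level is not set against theirs. Arnt2, a paralog that can also pair with alpha subunits and is known from neurons, was counted as 1 transcript and had a mean normalized count of 142, or 22.8 per kb. Hif3a, the remaining alpha subunit gene, was counted as 2 transcripts and had a mean of 0.563. Arnt2, Hif3a and the paralogs and regulators Bnip3l and Hif1an were chosen after their values were seen.

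**Figure D1:**
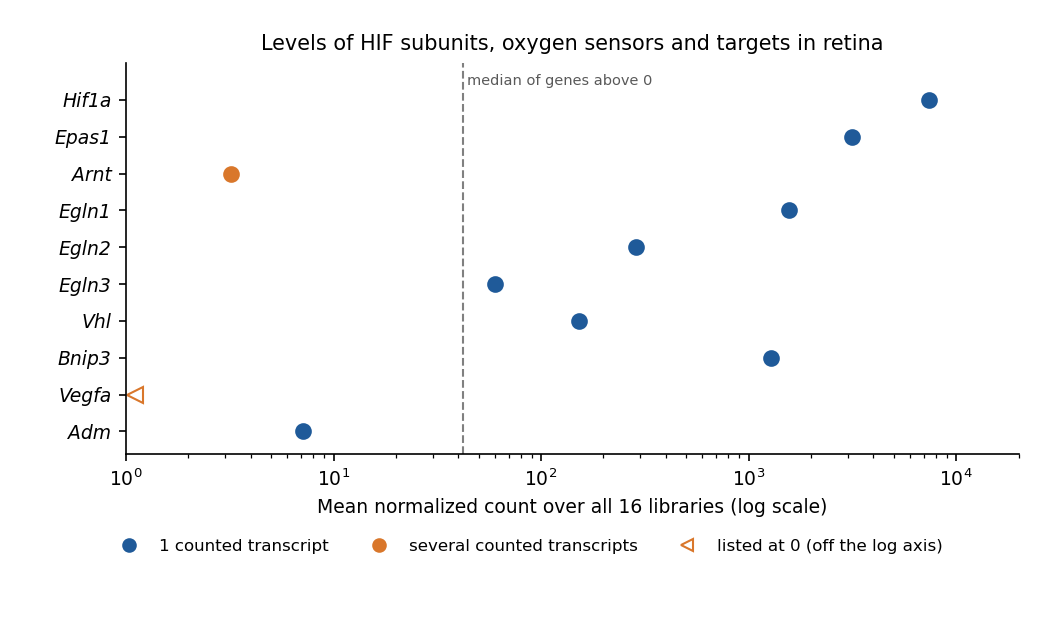
Mean normalized count over all 16 libraries (x axis, log scale) of the 10 genes, ordered by role (y axis), with 1 point per gene. The dashed line is the median of the genes above 0, 41.8; blue points are genes counted as 1 transcript, and Arnt at 3.21 and Vegfa, listed at 0 and drawn as an open triangle at the axis, were counted as several.

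The plot of the 10 means by role shows 7 genes at or above a mean of 10, 6 of them above 100, while Arnt, Vegfa and Adm lie below 10. Over all genes, 47.8% reached a mean of 10, and 7853 of the 25905 reached a mean of 100. The median of the 10 genes was 220, beside 6.98 over all 25905 genes, of which 6238 were at 0. Over the genes above 0 the median was 41.8. The median of 6.98 given below for all genes includes those at 0.

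By mean the hydroxylases stood in the order Egln1, Egln2 and Egln3, and the size of the steps per kb depended on the length used. Egln1 encodes PHD2, the main oxygen sensor that sets HIF-1 alpha stability in most cells, and had a mean normalized count of 1565, at percentile 96.2. Egln2, which encodes PHD1, had a mean of 286, at percentile 76.6. Egln3 encodes PHD3, a hydroxylase that is itself induced by HIF in many cells, and had a mean of 59.96, at percentile 53.8. Per kb of the longest transcript the levels were 436 for Egln1, 136 for Egln2 and 22.5 for Egln3. Egln1 was thus 3.21 times Egln2 and 19.3 times Egln3 per kb. With coding length the ratio of Egln1 to Egln2 was 5.73 and that of Egln1 to Egln3 15.6. The ratio of Egln2 to Egln3 was 2.72 with coding length, in place of 6.03, and Egln3 then stood at 83.6 per kb. With the shortest transcripts the ratio was 2.67 for Egln1 to Egln2 and 7.24 for Egln2 to Egln3. The ratio of Hif1a to Egln1 was 3.60 per kb of the longest transcript, 9.67 with the shortest and 2.26 with coding length.

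Vhl, the substrate-binding component of the ligase that marks hydroxylated alpha subunits, had a mean normalized count of 153, at percentile 66.5. Its level per kb was 54.8, between those of Egln2 and Egln3. The ratio of Hif1a to Vhl was 28.6 per kb of the longest transcript, 76.8 with the shortest and 10.5 with coding length. Hif1an encodes FIH, an asparaginyl hydroxylase that blocks coactivator binding by the alpha subunits. Its mean was 528 and its level per kb 85.2, which is 1.56 times that of Vhl.

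Among the hypoxia targets, Bnip3, a mitochondrial outer membrane protein that recruits the mitophagy machinery, had a mean normalized count of 1281 and a level of 729 per kb. Its paralog Bnip3l, also a mitophagy receptor, had a mean of 1200 and a level of 368 per kb, a ratio of 1.98 per kb. That ratio was 4.81 with the shortest transcripts and 1.24 with coding length. Adm encodes adrenomedullin, a secreted vasodilator peptide, and had a mean of 7.09, at percentile 34.3. The ratio of Bnip3 to Adm was 143 per kb of the longest transcript, 349 with the shortest and 178 with coding length. Vegfa, the main growth factor for blood vessels and a classical HIF target, was listed at 0. Vegfa was counted as 6 transcripts, the largest number among the 10 genes.

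**Figure D2:**
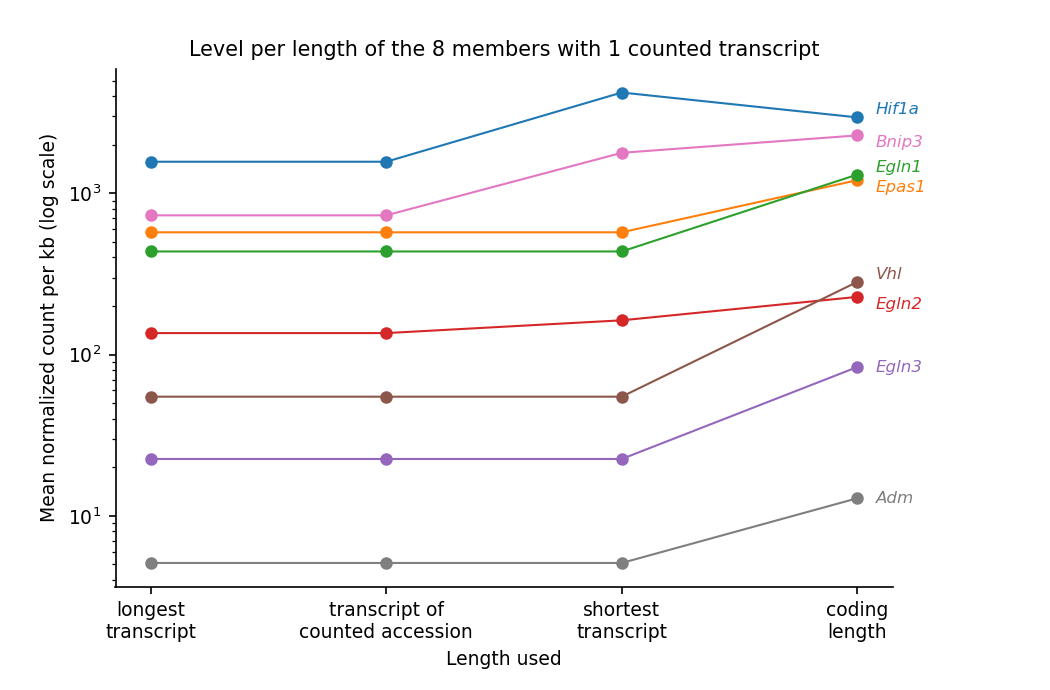
Mean normalized count per kb (y axis, log scale) of the 8 genes counted as 1 transcript, with 1 line per gene, for 4 choices of length (x axis). Hif1a is highest and Adm lowest under each; with coding length the lines of Egln1 and Epas1 cross, and so do those of Vhl and Egln2.

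The order of levels depended in part on the length used. Per kb of the longest transcript, the 8 genes counted as 1 transcript ran from high to low as Hif1a, Bnip3, Epas1, Egln1, Egln2, Vhl, Egln3 and Adm. The shortest transcript gave the same order. So did the transcript paired with the counted accession, which had the length of the longest for each of the 8. Per kb of coding length, Egln1 at 1305 stood above Epas1 at 1205, and Vhl at 282 above Egln2 at 228, as the plot of levels by length shows. The longest transcript has 5516 bases for Epas1 and 3594 for Egln1, and the coding part has 2622 and 1200 bases. Of these 8, Hif1a moved most between full lengths, from 1568 per kb of its longest transcript to 4212 per kb of its shortest, and Bnip3 from 729 to 1782.

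HIF binds DNA at the core letters ACGTG or GCGTG, and the promoters of 5 of the genes are shown because these are the hypoxia targets and the hydroxylases known as feedback regulators of HIF. Each line gives the 250 bases before the transcription start, from RefSeq on GRCm38.p6, 5' to 3' along the strand of the gene. Capitals mark the motif ACGTG or GCGTG, which appears as CACGT or CACGC where it lies on the opposite strand.
Bnip3 promoter, chr7:138909507-138909756 (minus strand): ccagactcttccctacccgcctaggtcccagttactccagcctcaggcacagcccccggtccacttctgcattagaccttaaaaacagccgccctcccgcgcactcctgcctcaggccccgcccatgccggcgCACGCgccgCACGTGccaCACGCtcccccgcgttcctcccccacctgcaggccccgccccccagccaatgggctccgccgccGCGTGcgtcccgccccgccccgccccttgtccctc
Adm promoter, chr7:110627407-110627656 (plus strand): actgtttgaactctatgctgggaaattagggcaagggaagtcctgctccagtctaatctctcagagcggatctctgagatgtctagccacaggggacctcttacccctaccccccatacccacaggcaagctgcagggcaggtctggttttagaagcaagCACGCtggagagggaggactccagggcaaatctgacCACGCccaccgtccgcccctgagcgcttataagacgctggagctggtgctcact
Vegfa promoter, chr17:46032378-46032627 (minus strand): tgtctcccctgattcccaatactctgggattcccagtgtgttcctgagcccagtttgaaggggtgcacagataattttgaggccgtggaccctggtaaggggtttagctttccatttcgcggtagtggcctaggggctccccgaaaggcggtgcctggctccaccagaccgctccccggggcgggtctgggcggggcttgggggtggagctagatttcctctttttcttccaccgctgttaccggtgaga
Egln1 promoter, chr8:124949255-124949504 (minus strand): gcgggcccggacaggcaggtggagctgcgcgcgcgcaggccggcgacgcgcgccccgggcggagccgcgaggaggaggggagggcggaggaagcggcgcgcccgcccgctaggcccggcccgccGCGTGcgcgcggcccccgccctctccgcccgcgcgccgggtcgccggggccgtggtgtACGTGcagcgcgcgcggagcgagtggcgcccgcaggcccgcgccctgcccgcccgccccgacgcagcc
Egln3 promoter, chr12:54203875-54204124 (minus strand): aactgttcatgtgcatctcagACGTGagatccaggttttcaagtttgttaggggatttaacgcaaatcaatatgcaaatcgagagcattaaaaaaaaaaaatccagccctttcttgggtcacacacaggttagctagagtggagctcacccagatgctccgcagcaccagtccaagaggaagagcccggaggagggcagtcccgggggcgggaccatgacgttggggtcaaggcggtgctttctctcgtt
The Bnip3 promoter holds 5 matches, which start 35 to 117 bases before the transcription start, and 2 of them overlap in CACGTG. Adm holds 2 matches, at 54 and 90 bases before its start, and this window of Vegfa holds 0. Egln1 also holds 2, at 68 and 126 bases, and Egln3 holds 1, at 229 bases.

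Among the other promoters, in windows from 250 bases before to 50 after the start, Hif1a holds 3 matches, Arnt 1 and Egln2 6, with 1 more in a second window of Egln2 at another start. Vhl holds 0. Vegfa holds 0 in the window listed as the first, whose upstream bases are shown, and 2 in its second window, at another start. Epas1 was not analysed here. Taking the first window of each gene, 7 of 9 hold the motif on either strand, 77.8%, beside 43.8% of the first windows of all 27025 genes with a window. Counting any window, 8 of the 9 hold it, and the share of all genes on that basis was not computed. The median GC content was 62.7% in the first windows of the 9 genes and 52.7% in those of all genes, and its part in that share was not tested. A match gives only the letters in the window, and binding was not measured.

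The low values of Arnt and Vegfa stood beside those of other genes that were counted as several transcripts. The authors' count table has 31616 transcripts under 25905 symbols. Of the 22086 genes with 1 counted transcript, 48.3% had a mean under 10 (95% exact binomial interval 47.6 to 48.9%). Of the 3794 genes with several, 75.4% did (74.0 to 76.7%). Of the 10 genes, 1 of the 8 with 1 counted transcript (Adm) was under 10, and so were both with several (Arnt and Vegfa). How reads shared by transcripts of a gene were counted is not given in the sources used here. How the counts of a gene's transcripts became 1 value per gene was not analysed here.

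**Figure D3:**
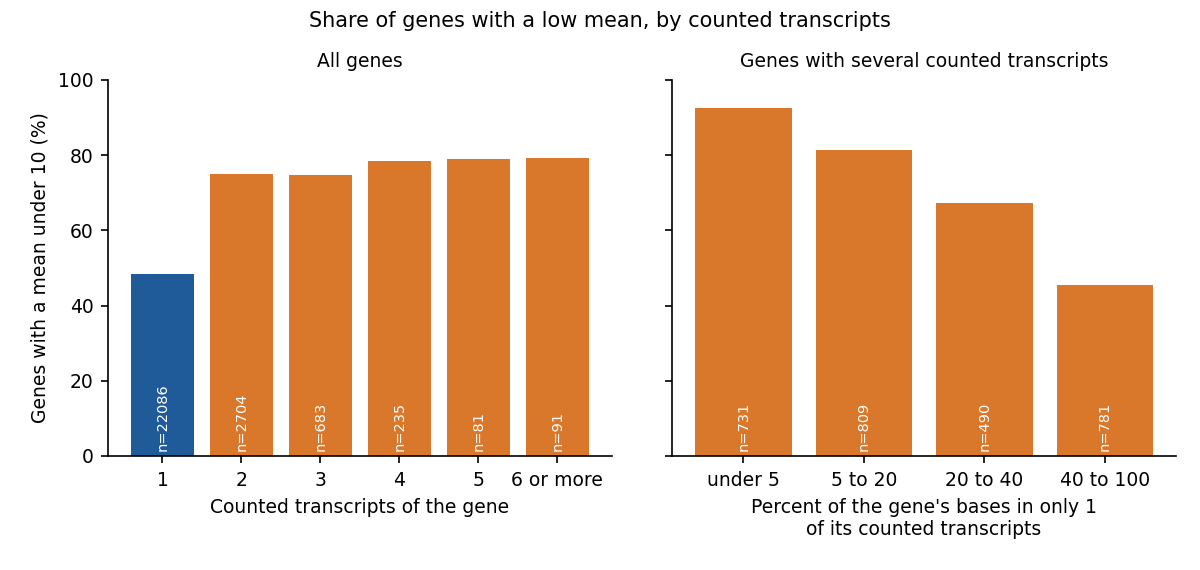
Share of genes with a mean normalized count under 10 (y axis, percent), by number of counted transcripts (left, all genes) and, for genes with several, by the percent of their bases that lie in only 1 counted transcript (right); n is the number of genes in each bar. The share is 48.3% with 1 transcript and 75.0% with 2, the number Arnt has, and on the right it falls from 92.6% to 45.3%.

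Overlap between a gene's transcripts went along with the level. Where less than 5% of the bases lay in only 1 of the counted transcripts, 92.6% of 731 genes had a mean under 10, and where 40% or more did, 45.3% of 781 genes. Arnt lies between, with 1720 of 4372 bases, 39.3%, in only 1 of its 2 transcripts, and in the range from 20 to 40% the share under 10 was 67.3% of 490 genes. Vegfa cannot be placed, since 3 of its 6 transcripts were paired with the reference. Of 6 genes that every cell uses and that were counted as several transcripts, 4 reached a mean of 10 and the other 2 did not: Ctnnb1, which encodes beta-catenin, had a mean of 2.42, and Gtf2i, a general transcription factor, 0.179. Both were chosen after their values were seen. The value of 0 is therefore given for Vegfa only as it is listed.

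Other genes of the pathway were read in 4 lists, which were also chosen with earlier results of these data known. Of the 52 genes, 36 had a mean of at least 10, namely 34 of 41 counted as 1 transcript and 2 of 11 counted as several. As shares these were 82.9% and 18.2%, beside 51.7% and 24.6% of all genes with 1 or several counted transcripts. Their median was 100, or 179 for those with 1 transcript and 2.38 for those with several. The 10 genes themselves gave 7 of 8 and 0 of 2.

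Genes of the HIF machinery act on the alpha subunits or with them. Of 15 such genes, 13 had a mean of at least 10, 86.7% beside 47.8% of all genes, and the median was 311 beside 6.98. The highest counts were those of Ep300 at 2920 and Crebbp at 2887, the acetyltransferases that HIF recruits as coactivators, and of Cited2 at 1893, which competes with HIF for both. Per kb these stood at 305, 267 and 785, beside 1568 for Hif1a.

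Of 22 further hypoxia targets outside glycolysis, 15 had a mean of at least 10, 68.2% beside 47.8% of all genes, and the median was 62.5 beside 6.98. Kdm6b, a histone demethylase, had the highest count at 2098, followed by Ndrg1, a stress response gene, at 1787 and Tfrc, the transferrin receptor, at 1279. Per kb these were 315, 619 and 262, all lower than Bnip3 at 729. Epo, which encodes erythropoietin, had a mean of 1.16 and was chosen after its value was seen.

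Kdr, the main signalling receptor, had a mean normalized count of 1359 and 229 per kb, and Flt1, which binds and limits free VEGF, 1199 and 174 per kb, a ratio of 1.32 per kb. The coreceptor Nrp1 had a mean of 194, while the coreceptor Nrp2, counted as 6 transcripts like Vegfa, was listed at 0. In all, 5 of 9 genes of the VEGF family and receptors had a mean of at least 10, 55.6% beside 47.8% of all genes, and the median was 14.3 beside 6.98.

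The receptor of adrenomedullin is formed by Calcrl with a RAMP protein. Calcrl had a mean normalized count of 40.5, Ramp2 26.0 and Ramp3 136. Per kb, Ramp3 stood at 110, Ramp2 at 22.1 and Adm itself at 5.10. The ratio of Ramp3 to Ramp2 was 4.997 per kb of the longest transcript, 1.61 with the shortest and 6.72 with coding length. Of the 6 genes of the adrenomedullin family and receptors, 3 had a mean of at least 10, and the median was 15.6, beside 47.8% and 6.98 over all genes.

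**Figure D4:**
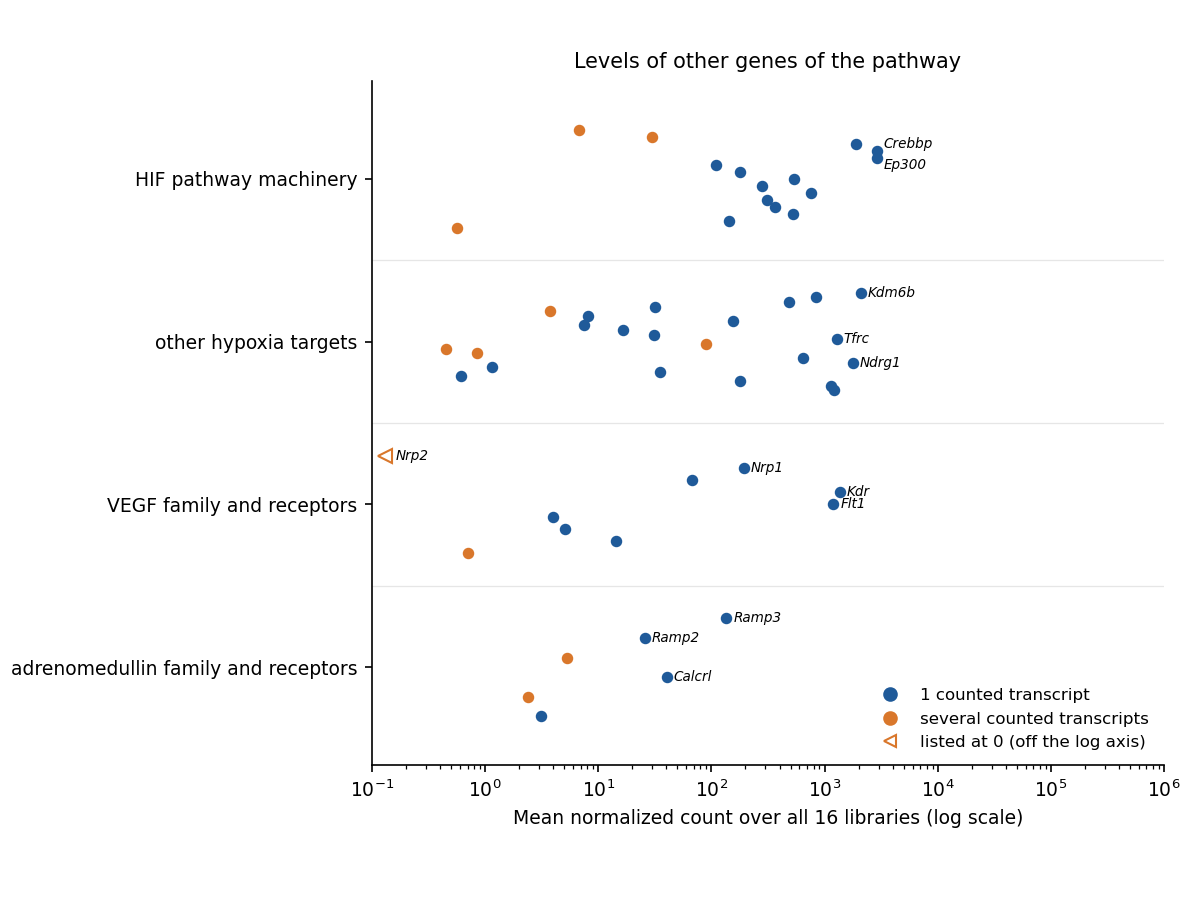
Mean normalized count over all 16 libraries (x axis, log scale) of 52 other pathway genes in 4 lists (y axis), with 1 point per gene and a vertical offset only to separate points. Genes counted as several transcripts (orange) lie mostly to the left, and Nrp2, listed at 0, is an open triangle at the axis.

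The plot of the 4 lists shows most genes counted as several transcripts at low means, with Mxi1 at 89.9 and Os9 at 29.9 as the 2 that reached 10. Both were chosen after their values were seen.

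Marker genes were read to see which cells could hold the RNA of these 10 genes. Rods were strongly represented, with Gnat1, the rod transducin alpha subunit, at a mean of 154477 and a summed level of 197697 over the 4 rod markers reported here. The lowest of these was Nrl at 88.9, counted as 2 transcripts. Müller glia, which span the retina, gave Glul at 17455 and Rlbp1, counted as 2 transcripts, at 1.39. The highest and lowest markers were Opn1sw at 2800 and Arr3 at 941 for cones, Trpm1 (2 transcripts) at 2866 and Cabp5 at 675 for bipolar cells, Gad1 at 2415 and Slc6a9 at 1725 for amacrine cells, Onecut1 at 91.6 and Lhx1 at 47.7 for horizontal cells, Nefl at 2999 and Rbpms (3 transcripts) at 5.53 for ganglion cells, and Gfap (2 transcripts) at 52.2 and Pax2 at 3.44 for astrocytes.

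Epas1, Kdr and Flt1 are known to act in vascular cells. The 4 markers of endothelium and pericytes summed to 151. Of these, Cdh5 at 99.5 and Cldn5 at 51.1 were counted as 1 transcript and lay above the median of 41.8 of genes above 0. The other two, Pecam1 at 0.446 and Pdgfrb, listed at 0, were counted as 2 transcripts. Cldn5 and Pecam1 were chosen after their values were seen. Microglia summed to 80.0 over 3 markers, from Aif1 at 4.08 to Cx3cr1 at 39.0. Genes listed as markers of tissues beside the retina were also above 0. Whether their RNA came from those tissues or from the retina was not tested. Lens markers summed to 1107, with Cryaa at 898 and Mip at 49.1, and pigment epithelium to 216, with Rpe65 at 121 and Best1 at 2.72. Blood markers summed to 10.9, with Hbb-b1 at 10.7 and Hba-a1 at 0.213, and cornea to 22.8, with Krt12 at 11.9 and Krt5 at 10.8. The part of any of these cells in the levels of Hif1a, Epas1 or the other genes was not tested.

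**Figure D5:**
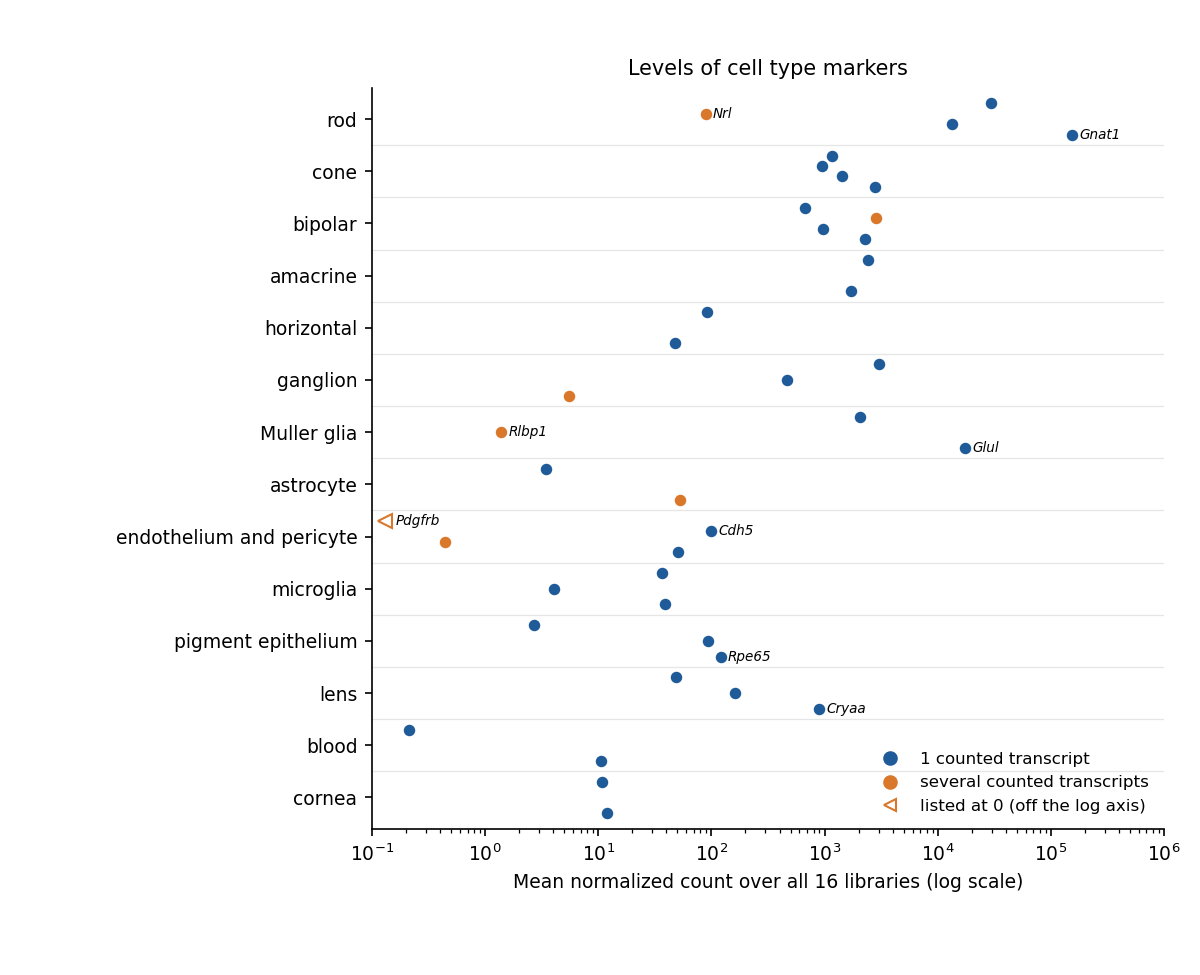
Mean normalized count over all 16 libraries (x axis, log scale) of marker genes for 14 cell types or tissues (y axis), with 1 point per gene and a vertical offset only to separate points. Gnat1 at 154477 is farthest right, Pdgfrb is listed at 0 (open triangle), and Krt12 at 11.9 is the highest marker of blood or cornea.

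The plot of markers by cell type shows every marker of cones, bipolar and amacrine cells above a mean of 100, and so are 3 of the 4 rod markers reported. Markers of the main retinal neurons and of Müller glia were thus present, as the labelled tissue requires. No marker allows Hif1a, Epas1, Egln1 or Bnip3 to be placed in a cell type.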

How the data were processed

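The data are RNA-Seq libraries of 16 retinas, by the labels 8 of spaceflight and 8 of ground control mice. The authors used Trimmomatic for trimming, TopHat2 for mapping to an NCBI mouse build older than the reference used here, and HTSeq for counting per RefSeq transcript. The signal value of each gene, deposited by the authors, averages all libraries after division of counts by DESeq2 size factors (version 1.22.2, R 3.5.1). The authors' count table was used only for its transcript symbols, which are names and not a measurement; its 5 summary rows were left out, and no transcript row carried the symbol of 25 genes of the other table. In both count tables together, 32 columns of counts, each of a single library, carry laboratory codes that match no label and were used in no step. The planned edgeR test of spaceflight against ground control therefore was not run, and depth, SD and overlap per group are not analysed here. The deposited comparison columns hold the authors' log2 fold changes, their standard errors, Wald statistics and p-values, and were not used.

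Levels were the mean, its percentile among genes above 0, and the mean per kb of the longest reference transcript (GENCODE M21). Lengths were matched by symbol for 71.5% of all genes, under 80%, so the comparison of levels per kb with all genes is void and was left out; all 10 described genes had a length. Overlap of transcripts was computed for genes with only curated accessions, of which 2811 of 2986 had every transcript paired. Promoters came from RefSeq (GRCm38.p6) and were matched for 9 of the 10 genes; the motif was ACGTG or GCGTG on either strand, with overlapping matches counted. Named were all 10 genes, the 3 highest means and every gene at 0 of each pathway list, and the highest and lowest of each marker list; genes outside this rule are said to be chosen after their values were seen. The list of genes that every cell uses was also chosen with the values known: 23 of 23 counted as 1 transcript had a mean of at least 10 (median 1493), and 4 of 6 counted as several (median 16.8). Tfap2a of the amacrine list is not analysed here, and 1 rod marker is not reported here. The members and lists were chosen with earlier results of these data known. Intervals are exact binomial at 95% and cover counting error only, and genes are not independent replicates. Alternatives were other minimum means, lengths and promoter windows. The steps were tested on simulated data. Software versions were matplotlib 3.10.9, scipy 1.17.1, pandas 2.3.3 and numpy 2.4.6, under Python 3.11.15.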

Additional observations from a re-analysis of the deposited data

How the results depend on the processing

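No paired analysis was possible because the count columns match no label, and for the same reason fits with DESeq2, without a filter, and with a stricter threshold on adjusted p were not run. With a minimum mean of 1 or 100 in place of 10, 9 or 6 of the 10 described genes passed in place of 7. Of all 25905 genes, 16066 or 7853 passed in place of 12374. The HIF machinery gave 14 or 12 in place of 13, and the other hypoxia targets 19 or 10 in place of 15. The VEGF family and receptors gave 7 at 1 and 3 at 100, in place of 5. Of the 6 genes of the adrenomedullin family and receptors, 6 passed at 1 and 1 at 100, in place of 3. Their share was thus above that of all genes at 1 and below it at 100. In first promoter windows from 100 bases before the start, 6 of the 9 genes held the motif in place of 7. Over all windows of all genes, second windows included, the share was 29.3% in place of 43.8%. The share of genes under the limit, 48.3% with 1 counted transcript and 75.4% with several, was recomputed under alternatives chosen after seeing the data. It was 39.1% and 71.3% with curated accessions only, 35.6% and 52.2% under a limit of 1, and 66.0% and 91.5% under a limit of 100, so genes with several were more often under the limit in each. All 13 percentiles recomputed among genes with a mean of at least 10 or 100 were lower, since fewer low genes are ranked. At these minimum means Vhl fell from 66.5 to 46.8 and 16.1, Egln2 from 76.6 to 62.8 and 41.3, and Egln3, at 10 alone, from 53.8 to 26.6. Levels per kb were also recomputed with coding length, the shortest transcript, or the transcript of the counted accession (chosen after seeing the data). Of these 27 levels, 13 were higher, and none could be lower, since none of these lengths exceeds the longest transcript. The swaps in order that coding length gave are in the text. The limits are that no value per mouse, no spread and no group difference is given, and that Arnt and Vegfa, counted as several transcripts, have levels of unknown meaning.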
